A study of Homo sapiens with 8 samples.

Results

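The miR-193 and miR-365 clusters were analysed in small RNA-seq libraries of 4 human tumor-derived cell lines. Their mature miRNAs were chosen by name and make up 6 of the 2588 mature miRNA names in the table: hsa-miR-193a-5p, hsa-miR-193a-3p, hsa-miR-193b-5p, hsa-miR-193b-3p, hsa-miR-365a-3p and hsa-miR-365b-3p. The species prefix is left out from here on. The last pair cannot be told apart by sequence, so its reads were added up as miR-365-3p, which left 5 members. The other arms, miR-365a-5p and miR-365b-5p, were added because each carries the sequence of 1 cluster. ES-2 derives from an ovarian cancer, MV-3 from a melanoma, Huh-7 from a hepatocellular carcinoma and A-549 from a lung adenocarcinoma. Every line was parental and untreated, was kept in DMEM with serum, and gave RNA 48 h after seeding. The study, which followed the RNA-binding protein IGF2BP1 and its interplay with miRNAs, profiled these lines to compare their miRNA content. Each line has 2 libraries, biological replicates per the study, and stands for 1 tumor, so a difference between lines is not a difference between tissues.

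A miRNA hairpin is cut into a 5p and a 3p arm, and an arm loaded into an Argonaute protein finds its target mRNAs mainly through the seed near its 5′ end. Human cells carry the miR-193 and miR-365 hairpins as paralogous pairs, miR-193b with miR-365a on 1 chromosome and miR-193a with miR-365b on another. The miR-193b and miR-365 pair is known for its high level in brown fat, and miR-193 arms have been described as repressors of cyclin D1, the kinase KIT and the protease urokinase in tumor cells.

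In GRCh38, the chromosome 16 cluster has MIR193B at chr16:14303967-14304049 and MIR365A at chr16:14309285-14309371. Both hairpins lie on the plus strand within an intron of the long non-coding RNA gene MIR193BHG (chr16:14301389-14331067), with 5235 bases between them. The chromosome 17 cluster is wider, with 15327 bases between MIR193A at chr17:31559996-31560083 and MIR365B at chr17:31575411-31575521, also on the plus strand. MIR365B partly overlaps an exon of the long non-coding RNA gene MIR365BHG (chr17:31571142-31575659). GENCODE has no gene on its strand that spans MIR193A. A further hairpin, MIR4725 at chr17:31575269-31575358, lies in an intron of MIR365BHG, 52 bases from MIR365B.

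The mature sequences show which arms can be traced to 1 cluster and which seeds the clusters share. They are printed 5′ to 3′ as given by RefSeq for GRCh38.p14, with the seed (bases 2 to 8) in capitals, the chromosome 16 arm before its chromosome 17 counterpart.
miR-193b-5p: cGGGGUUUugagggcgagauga
miR-193a-5p: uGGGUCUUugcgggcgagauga
miR-193b-3p: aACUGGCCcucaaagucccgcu
miR-193a-3p: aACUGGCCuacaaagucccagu
miR-365a-3p: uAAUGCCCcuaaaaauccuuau
miR-365b-3p: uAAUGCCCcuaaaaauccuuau
miR-365a-5p: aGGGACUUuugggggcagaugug
miR-365b-5p: aGGGACUUucaggggcagcugu

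Counted from 1 at the 5′ end, with the base of the chromosome 17 arm of miR-193 first, the 3p arms of miR-193a and miR-193b differ by U9C, A10U, A20G and G21C. All 4 of these changes lie outside the seed. The 5p arms of miR-193a and miR-193b differ by U1C, U5G, C6U and C11A, and 2 of these lie in the seed. With miR-365a first, the miR-365 5p arms differ by U10C, G11A and A19C over the 22 positions compared and share the seed. The miR-365 3p arms are identical in all 22 bases. Each 3p seed is thus shared by both clusters, and the 5p seeds of miR-193 are not. No other miRNA among the 2281 names matched to a RefSeq sequence carries the seed of a member.

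Libraries held 1173902 to 2670030 reads on mature miRNAs. Levels are given as deposited, in counts per 1000000 reads scaled between libraries by the trimmed mean of M values (TMM), here called normalised CPM. Where the scaling matters they are also given as library CPM, the plain share of a library's miRNA reads. TMM factors ran from 0.593 in A-549 to 1.70 in Huh-7, so both scales differ most between these 2 lines. A count of 3 reads, taken as the detection floor, corresponds to 0.845 to 2.45 normalised CPM. Of the lists checked against the labels, the 2 hepatocyte miRNAs summed to 84424 to 89379 normalised CPM in Huh-7 and to at most 40.7 in the other lines. The 2 melanocyte miRNAs summed to only 1.10 to 1.48 in MV-3, where miR-211-5p was at 0, to at most 4.91 in ES-2 and A-549, and to 30.1 to 40.0 in Huh-7, nearly all of it miR-204-5p. The 5 epithelial miRNAs summed to 1605 to 2339 in A-549 and Huh-7 and to 29.6 to 60.4 in ES-2 and MV-3. Most of the higher sums was miR-200b-3p, with line means of 1853 in Huh-7 and 1354 in A-549. miR-200a-3p, miR-200c-3p and miR-429 were also higher in these 2 lines, miR-200c-3p with 79.9 in A-549 beside 44.5 in ES-2. miR-141-3p did not follow them, with 18 reads in ES-2, 7 in Huh-7, 1 in A-549 and 0 in MV-3. The 4 haematopoietic miRNAs summed to 503 to 554 in ES-2 and to at most 3.27 elsewhere. In ES-2 the sum came from miR-142-3p and miR-142-5p (1199 and 577 reads), while miR-223-3p had 0 reads and miR-451a 1 read. The part of these marker differences in the results on the clusters was not tested.

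Among the arms of the chromosome 17 cluster, miR-193a-5p was the most abundant. It reached 715 and 823 normalised CPM in the MV-3 libraries, 472 and 487 in Huh-7, 228 and 222 in A-549, and 65.3 and 108 in ES-2. No 2 lines overlapped in normalised CPM. In library CPM the order of the line means was again MV-3, Huh-7, A-549, ES-2, but the libraries of MV-3 (823 and 968) and Huh-7 (771 and 829.9) overlapped. The line means were 769 ± 76.4 in MV-3, 479 ± 10.7 in Huh-7, 225 ± 4.18 in A-549 and 86.8 ± 30.5 in ES-2 (SD, n = 2 libraries). By mean library CPM, miR-193a-5p ranked 69th of all names in MV-3 and 156th in ES-2. Its highest line exceeded its lowest 8.86-fold in normalised CPM and 12.1-fold in library CPM.

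The opposite arm, miR-193a-3p, was almost absent from the reads. It had 5 reads in MV-3 replicate 1, 2 reads in Huh-7 replicate 2, and none in the other 6 libraries. Summed over the 8 libraries, it accounted for 7 of the 6523 reads of the hairpin, or 0.107% (exact 95% interval 0.0432 to 0.221%, counting error only). MV-3 replicate 2, with 1500 reads of miR-193a-5p and 0 of miR-193a-3p, allows a 3p level of up to 0.2% of that of the 5p arm. ES-2 replicate 1, with only 94 reads of miR-193a-5p, allows up to 3.19%. With so few reads, miR-193a-3p did not pass the filter on low counts and its level was not compared between lines.

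The chromosome 17 arm of miR-365 had the same order of lines as miR-193a-5p. miR-365b-5p stood at 78.5 and 92.7 normalised CPM in MV-3, 40.5 and 40.0 in Huh-7, 20.9 and 11.4 in A-549, and 0 and 5.14 in ES-2. Over the 8 libraries, log2 levels of miR-365b-5p and miR-193a-5p had a Pearson correlation of 0.975, a description over libraries of 4 lines that share their scaling. miR-4725-3p, from the hairpin next to MIR365B, had 14 and 8 reads in MV-3, 12 and 5 in Huh-7, 4 and 1 in A-549, and 0 in both ES-2 libraries. miR-4725-5p did not exceed 10 reads in any library.

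The arms of the chromosome 16 cluster were highest in A-549. miR-193b-3p, the arm that shares its seed with miR-193a-3p, was at 244 and 177 normalised CPM in A-549, 32.1 and 28.7 in Huh-7, 22.9 and 35.7 in MV-3, and 9.72 and 6.68 in ES-2. Both A-549 libraries lay above all others and both ES-2 libraries below, while those of Huh-7 fell within the range of MV-3. In library CPM, both Huh-7 libraries (52.4 and 48.9) lay above those of MV-3 (26.4 and 42.0). The means were 211 ± 46.9 in A-549, 30.4 ± 2.41 in Huh-7, 29.3 ± 8.996 in MV-3 and 8.20 ± 2.15 in ES-2 (SD, n = 2), a 25.7-fold range, or 18.0-fold in library CPM.

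miR-193b-5p from the other arm of this hairpin gave 163 and 153 normalised CPM in A-549, 45.9 and 29.1 in MV-3, 20.8 and 21.2 in Huh-7, and 9.02 and 12.3 in ES-2. The lines did not overlap in normalised CPM, but in library CPM MV-3 (52.8 and 34.2) and Huh-7 (34.0 and 36.1) did. A-549 exceeded ES-2 14.8-fold in normalised CPM and 10.4-fold in library CPM.

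miR-365a-5p, from the neighbouring hairpin, was at 80.0 and 65.4 normalised CPM in A-549 and between 4.86 and 13.9 in the 6 libraries of the other lines. Those 3 lines overlapped on this scale, while in library CPM both Huh-7 libraries (22.5 and 18.6) lay above those of ES-2 and MV-3. Log2 levels of the chromosome 16 arms had Pearson correlations over the 8 libraries of 0.942 for miR-193b-5p with miR-193b-3p, 0.844 for miR-193b-3p with miR-365a-5p and 0.843 for miR-193b-5p with miR-365a-5p. Between clusters the values were 0.256 for miR-193a-5p with miR-193b-5p and 0.0257 for miR-365a-5p with miR-365b-5p. These are descriptions, since the libraries come as pairs from 4 lines.

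miR-365-3p, the arm made by both clusters, was detected in every line. Its level was 400.1 and 384 normalised CPM in A-549, 213 and 242 in MV-3, 179 and 155 in Huh-7, and 23.6 and 33.9 in ES-2. ES-2 was lowest on both scales, but the order of the other lines depended on the scaling. In library CPM the means were 279 ± 19.7 in Huh-7, 265 ± 27.8 in MV-3 and 236 ± 11.2 in A-549, against 24.6 ± 5.88 in ES-2 (SD, n = 2). The table listed reads of miR-365-3p under both hairpins, with 1589 reads at miR-365a-3p and 1450 at miR-365b-3p. The miR-365a-3p entry took 38.2 to 57.4% of them per library, and the exact 95% interval covered 50% in 7 of 8 libraries. The exception was A-549 replicate 1, with 57.4% (53.5 to 61.2%). The entries therefore followed neither the 82.2% of miR-365a-5p among miR-365 5p reads in A-549 nor its 7.63% in MV-3, and were not used to assign miR-365-3p to a cluster.

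**Figure D1:**
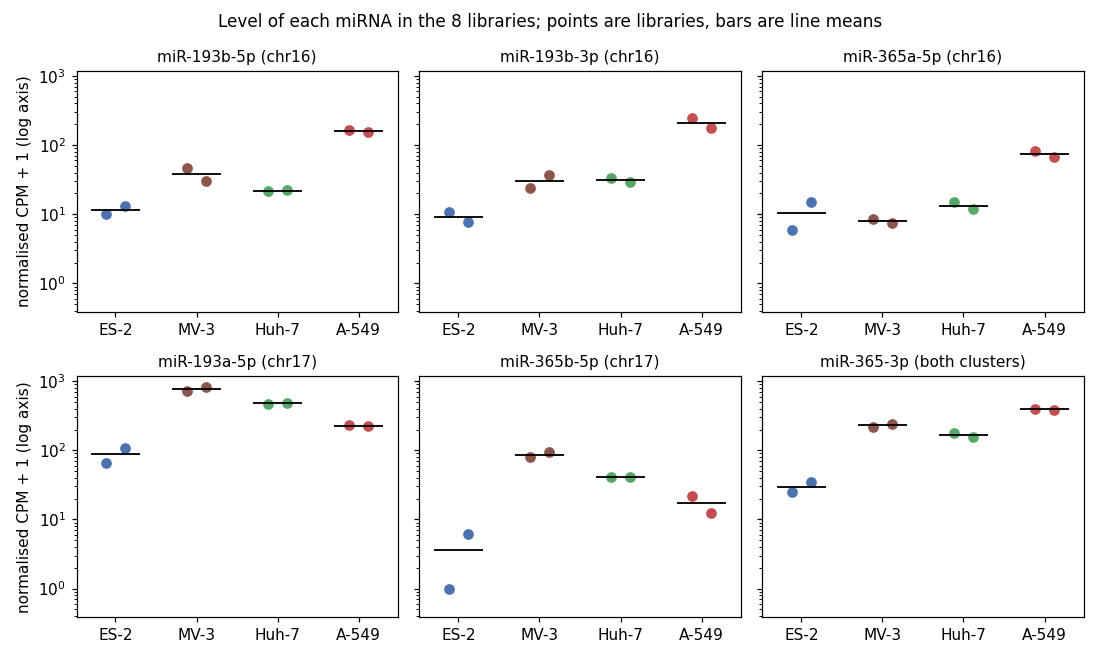
Level of 3 chromosome 16 arms, 2 chromosome 17 arms and miR-365-3p in the 8 libraries, as normalised CPM + 1 on a log axis; points are libraries and bars are line means (n = 2). Chromosome 16 arms peak in A-549 (miR-193b-3p at 244 and 177), chromosome 17 arms peak in MV-3 (miR-193a-5p at 715 and 823), and miR-365b-5p of ES-2 replicate 1 sits at 1 because it had 0 reads.

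Since the paralogous arms are read in the same library, their ratio does not depend on the scaling between libraries. miR-193b-5p made up 41.6 and 40.7% of the summed miR-193b-5p and miR-193a-5p reads in the A-549 libraries. It made up 12.1 and 10.2% in ES-2, 6.03 and 3.41% in MV-3, and 4.23 and 4.17% in Huh-7. A-549 thus stood far above the rest, ES-2 next, and the ranges of MV-3 and Huh-7 overlapped. The mean log2 ratio of miR-193b-5p to miR-193a-5p was -0.51 in A-549 and -4.49 in Huh-7, a span of 3.98 over the lines. An exact permutation test over the 105 ways to divide the libraries among 4 lines gave p = 0.0286 for a difference among the lines, and 0.0571 after Benjamini-Hochberg adjustment over 6 ratios. The smallest p this design allows is 0.00952.

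The miR-365 5p arms were divided differently. miR-365a-5p made up 79.3 and 85.1% of the miR-365 5p reads in A-549, 25.4 and 21.5% in Huh-7, and 8.62 and 6.63% in MV-3. In ES-2 all 7 reads of replicate 1 and 27 of 37 reads of replicate 2 (73.0%) were miR-365a-5p. The span of the mean log2 ratio over lines was 5.67, with p = 0.0286 in the same exact permutation test and an adjusted value of 0.0571. ES-2 therefore lay on the side of A-549 for the miR-365 5p arms. For the miR-193 5p arms, every line including A-549 had most reads from chromosome 17. There the chromosome 16 share of ES-2 (12.1 and 10.2%) was closer to those of MV-3 and Huh-7 than to that of A-549 (41.6 and 40.7%). The few ES-2 reads of the miR-365 5p arms limit this comparison, since the exact 95% interval for replicate 1 spans 59.0 to 100%.

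Summed over the arms that belong to 1 cluster only, a grouping chosen after the values were seen, the chromosome 16 cluster gave 66.1 and 62.9% of the reads in A-549. It gave 26.6 and 22.5% in ES-2, 11.5 and 10.3% in Huh-7 and 8.73 and 7.23% in MV-3. A-549 was the only one of the 4 lines with more reads from chromosome 16 than from chromosome 17. In normalised CPM the chromosome 16 arms summed to 486 and 396 in A-549 and to at most 76.2 in any other library. The chromosome 17 arms summed to 797 and 916 in MV-3 and to 249 and 234 in A-549.

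miR-365-3p was compared with the summed miR-193 3p arms in each library. In A-549 it had 1.64 and 2.16 reads for each miR-193 3p read. In the other lines it had 8 and 6.78 in MV-3, 5.58 and 5.29 in Huh-7, and 2.43 and 5.08 in ES-2. The exact permutation test gave p = 0.00952, the smallest it can give, and 0.0571 after adjustment. The unadjusted p rose to 0.152 without either A-549 library and to 0.0952 without either library of MV-3 or Huh-7. None of the 6 ratios passed an adjusted p of 0.05. The 6 include miR-193a-5p to miR-193a-3p and miR-193b-3p to miR-193a-3p, with adjusted p of 0.352 and 0.2 in this test. With only 7 reads of miR-193a-3p in all, those ratios cannot decide whether the lines differ. A ratio that is alone at the smallest p cannot pass after this adjustment, so the lines are not shown to be alike.

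**Figure D2:**
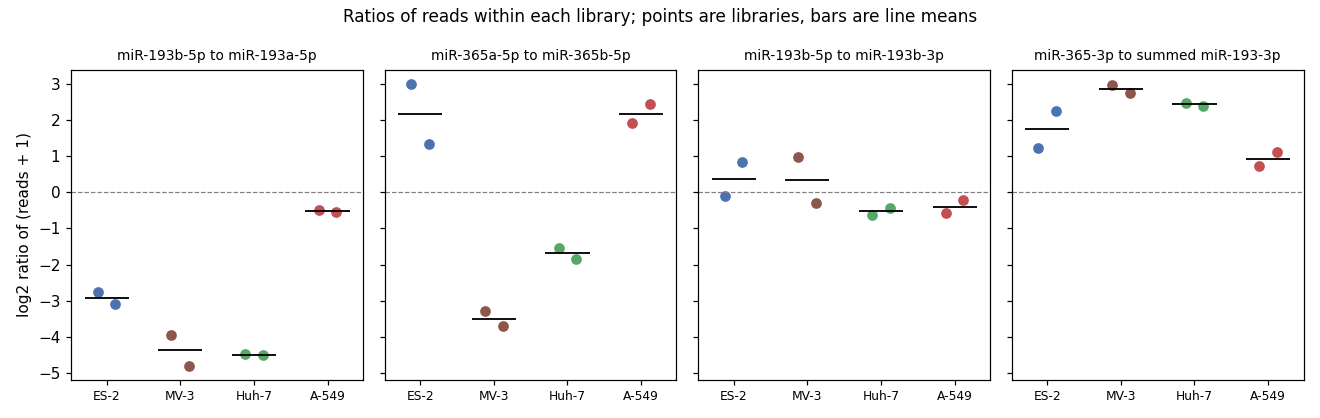
Log2 ratios of (reads + 1) within each library for miR-193b-5p to miR-193a-5p, miR-365a-5p to miR-365b-5p, miR-193b-5p to miR-193b-3p, and miR-365-3p to the summed miR-193 3p arms; points are libraries, bars are line means and the dashed line marks equal reads. The first ratio averages -0.51 in A-549 and -2.92 or lower elsewhere, while miR-193b-5p to miR-193b-3p spans only 0.89 over the line means.

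Both arms of the miR-193b hairpin had similar numbers of reads, unlike those of miR-193a. miR-193b-5p made up 44.2% of all miR-193b reads, and between 39.4 and 66.7% in single libraries. The log2 ratio of miR-193b-5p to miR-193b-3p spanned 0.89 over the line means, and a difference among lines was not detected (exact permutation test, p = 0.248, adjusted 0.297). miR-193a was 99.9% 5p. Among 117 hairpin names with at least 20 reads of both arms together in every library, the median 5p share was 85.9%. A higher 5p share than that of miR-193a was found for 11 of them, and 30 exceeded 99%. Across the same hairpins the arm ratio spanned a median of 1.40 log2 units over the lines, and 35 had a smaller span than miR-193b.

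**Figure D3:**
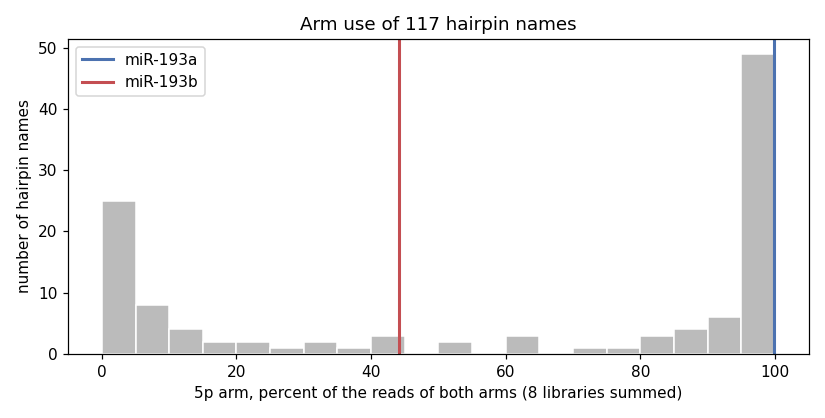
Histogram of the 5p share of reads, in percent of both arms summed over the 8 libraries, for 117 hairpin names with at least 20 reads in every library. Vertical lines mark miR-193a at 99.9% and miR-193b at 44.2%.

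Differences between lines were tested with limma on log2(normalised CPM + 1) over all 527 miRNAs that passed the filter on low counts, and called at a Benjamini-Hochberg adjusted p below 0.01. A fold change on this scale understates the change of a miRNA with few reads. All 4 members tested differed among the 4 lines, where 68.1% of all tested miRNAs did. limma's adjusted p was 9.68e-05 for miR-193a-5p, 0.000177 for miR-193b-5p, 0.000136 for miR-193b-3p and 2.21e-05 for miR-365-3p. The added arms miR-365a-5p and miR-365b-5p also passed (limma's adjusted p = 0.00331 and 0.00529). Both lost this call when any 1 library of MV-3, Huh-7 or A-549 was left out. Line means of the 4 members spanned 3.17 to 4.53 log2 units with a median of 3.76, beside a median of 3.09 over all 527 miRNAs. Of the 24 pairwise comparisons of members, 18 were called, beside 42.5% of the same comparisons over all tested miRNAs, and 7 of the 18 held under every alternative processing. With only the lines compared in the fit, 7 of the calls were lost (limma's adjusted p = 0.0101 to 0.0689), including those of miR-193a-5p for MV-3 against ES-2 and of miR-193b-3p when A-549 was compared with MV-3. The pairs of lines share libraries, so their results are not independent.

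Against ES-2, the line with the lowest level of every member tested, MV-3 was higher in 4 of 4 members, beside 11.2% of all miRNAs called higher. The log2 fold change was 3.17 (SE 0.23) for miR-193a-5p and 2.96 (SE 0.19) for miR-365-3p, with limma's adjusted p of 9.49e-05 and 6.45e-05. miR-193b-5p and miR-193b-3p changed less, by 1.70 (SE 0.30) and 1.71 (SE 0.33), with limma's adjusted p of 0.00518 and 0.00775. Of the added arms, miR-365a-5p differed by -0.23 and did not pass (limma, adjusted p = 0.808). miR-365b-5p rose by 5.12 (limma, adjusted p = 0.00338), a call lost without any 1 library of MV-3, Huh-7 or A-549. The call for miR-193b-3p was lost without any 1 of the 8 libraries (adjusted p up to 0.0448). That for miR-193b-5p was lost without any library except MV-3 replicate 2 (up to 0.0307).

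Huh-7 was higher than ES-2 in 3 of 4 members, beside 27.5% of all miRNAs. miR-365-3p and miR-193a-5p rose by log2 2.52 and 2.50 (limma, adjusted p = 5.16e-05 and 0.000109). miR-193b-3p rose by 1.79 (adjusted p = 0.00354), a call lost without ES-2 replicate 2, Huh-7 replicate 1 or Huh-7 replicate 2 (adjusted p = 0.0213, 0.0319 and 0.0236). miR-193b-5p, with a log2 difference of 0.93, did not pass (adjusted p = 0.0367), but passed with library CPM (log2 1.84, adjusted p = 0.00141).

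A-549 was higher than ES-2 in 4 of 4 members, beside 23.5% of all miRNAs. Here the chromosome 16 arms had the largest log2 fold changes of the members, 4.53 for miR-193b-3p and 3.78 for miR-193b-5p (limma, adjusted p = 5.40e-05 and 7.64e-05). miR-365-3p rose by 3.74 (adjusted p = 1.25e-05) and miR-193a-5p by 1.41 (adjusted p = 0.00218). The call for miR-193a-5p was lost without either A-549 library or either Huh-7 library (adjusted p = 0.0119 to 0.0241), and with library CPM (log2 0.90, adjusted p = 0.0133).

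Between Huh-7 and MV-3, 0 of 4 members were called by limma, although 47.1% of all miRNAs were. Before adjustment, limma's p was 0.0240 for miR-193a-5p and 0.0423 for miR-193b-5p. At an adjusted p below 0.01, edgeR called 0 of 4 members, beside 242 of the 527 miRNAs. DESeq2 called 1 of 4, miR-193a-5p, beside 230 of the 527. The log2 differences were -0.68 for miR-193a-5p, -0.77 for miR-193b-5p, 0.08 for miR-193b-3p and -0.44 for miR-365-3p, with limma's adjusted p from 0.0431 to 0.871. The DESeq2 call and the fits without either ES-2 library put miR-193a-5p past the threshold (adjusted p = 0.00281 to 0.00301).

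A-549 and MV-3 differed in opposite directions for the 2 clusters. miR-193b-3p and miR-193b-5p were higher in A-549 by log2 2.82 and 2.08 (limma, adjusted p = 0.000527 and 0.00149), 2 of 4 members beside 24.1% of all miRNAs. miR-193a-5p was lower by log2 -1.76 (adjusted p = 0.000843), 1 of 4 members beside 15.6%. For the added arms, the log2 difference was 3.20 for miR-365a-5p (adjusted p = 0.00205) and -2.39 for miR-365b-5p, which did not pass (adjusted p = 0.0509). The call for miR-365a-5p was lost without either MV-3 or either A-549 library (adjusted p = 0.0136 to 0.0207). miR-365b-5p passed with edgeR (adjusted p = 0.00698), with DESeq2 (0.00295) and without either ES-2 library (0.00456 and 0.00538). miR-365-3p differed by 0.78 and did not pass either (adjusted p = 0.0149). It passed with RLE factors (adjusted p = 0.00584), with DESeq2 (1.83e-05) and without either ES-2 library (0.00553 and 0.00555), while library CPM turned it to log2 -0.17 (adjusted p = 0.484). The calls for miR-193a-5p and miR-193b-5p were lost without either A-549 library (adjusted p = 0.0126 to 0.0150), and that for miR-193b-5p also with library CPM (log2 1.137, adjusted p = 0.0159).

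A-549 against Huh-7 gave the same directions. Of the added arms, miR-365a-5p differed by log2 2.465 (limma, adjusted p = 0.00485). That call was lost with library CPM (log2 1.05, adjusted p = 0.0884) and without any 1 library of MV-3, Huh-7 or A-549. miR-365b-5p differed by log2 -1.32 and did not pass (limma, adjusted p = 0.207). miR-193b-5p, miR-193b-3p and miR-365-3p were higher in A-549 by log2 2.85, 2.74 and 1.23 (limma, adjusted p = 0.000245, 0.000456 and 0.00154), 3 of 4 members beside 28.7% of all miRNAs. miR-193a-5p was lower by log2 -1.09 (adjusted p = 0.00578), 1 of 4 beside 23.7%. Its call was lost without any library of MV-3, Huh-7 or A-549 (adjusted p = 0.0142 to 0.0479), with median-ratio (RLE) size factors (log2 -0.89, adjusted p = 0.0142) and without the filter on low counts (adjusted p = 0.0133). Library CPM turned the log2 difference of miR-365-3p to -0.24 (adjusted p = 0.282), with a median of -1.38 over all miRNAs on that scale. On that scale the call for miR-193b-3p was lost (log2 1.29, adjusted p = 0.0124) and miR-193b-5p kept its call with a log2 difference of 1.41 (adjusted p = 0.00473). The call for miR-365-3p was also lost without either Huh-7 or either A-549 library (adjusted p = 0.0112 to 0.0171).

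**Figure D4:**
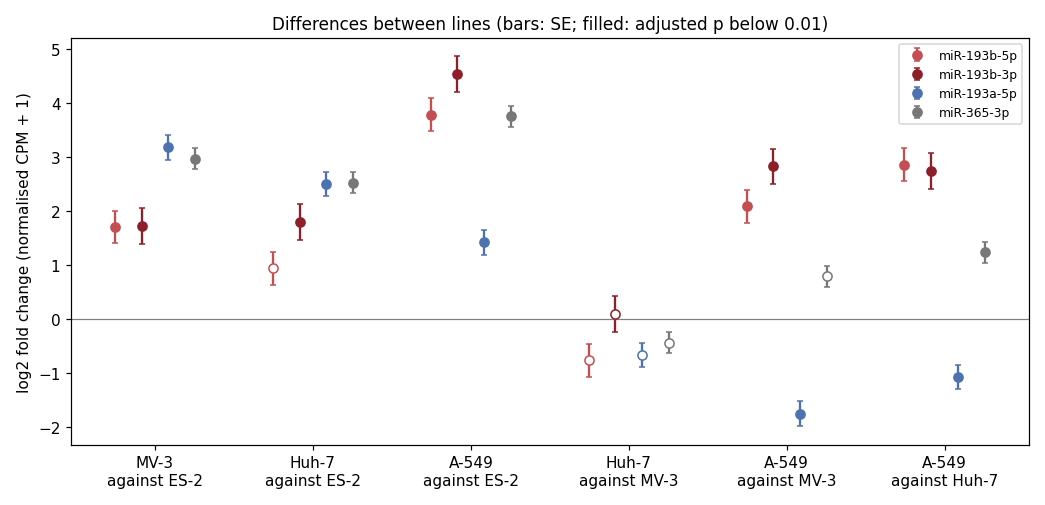
Log2 fold change of 4 members, on the log2(normalised CPM + 1) scale, for each of the 6 pairs of lines; error bars are the SE from limma and filled points passed an adjusted p below 0.01. miR-193a-5p lies below 0 and both miR-193b arms above 0 where A-549 is compared with MV-3 or Huh-7, and miR-365-3p lies between them; with library CPM, miR-365-3p falls to -0.17 and -0.24 in these comparisons.

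Replacing TMM by library CPM shifted the log2 differences of the tested miRNAs by a median of 0.40 for MV-3 against ES-2, 0.87 for Huh-7 against ES-2, -0.50 for A-549 against ES-2, 0.52 for Huh-7 against MV-3, -1.33 for A-549 against Huh-7 and -0.87 when A-549 was compared with MV-3. It also moved the share of calls that were higher in the first line. That share went from 44.03 to 59.3% for MV-3 against ES-2, from 56.0 to 72.2% for Huh-7 against ES-2, from 57.3 to 67.0% for Huh-7 against MV-3 and from 57.1 to 44.4% for A-549 against ES-2. In the comparisons of A-549 with MV-3 and Huh-7 it fell from 60.8 to 34.02% and from 54.7 to 31.3%. Relative to the median of all miRNAs in library CPM, every member called higher under TMM stood above it. The distance ran from log2 1.1395 (miR-365-3p for A-549 against Huh-7) to 4.27 (miR-193b-3p for A-549 against ES-2). miR-193a-5p stood below the median by log2 -1.17 and -2.18 for A-549 against Huh-7 and MV-3. Taking off this median re-centres the differences much as TMM does, and the members were picked by their TMM calls. These distances are therefore a description and no separate check of the calls.

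The 5 members together took a small part of the miRNA reads. Their summed share was 0.115 and 0.133% in MV-3, 0.115 and 0.118% in Huh-7, 0.0556 and 0.0630% in A-549, and 0.00932 and 0.0137% in ES-2, with p = 0.0190 in the exact permutation test among the 4 lines. MV-3 and Huh-7 overlapped, and A-549 and ES-2 stood below them. In normalised CPM, the sum averaged 1065 in MV-3 and 986 in A-549, against 698 in Huh-7 and 134 in ES-2. By line mean, miR-193a-5p made up 63.9 to 72.2% of the member reads in ES-2, MV-3 and Huh-7, but 22.9% in A-549. There miR-365-3p made up 39.8%, miR-193b-3p 21.3% and miR-193b-5p 16.02%.

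For miR-193b-3p, miR-193a-5p and miR-365-3p, the miRNAs with the most similar log2 levels were listed among 521 other miRNAs. They were ranked by Pearson correlation over the 8 libraries. This is a description, since 8 libraries of 4 lines give few independent points. For miR-193b-3p these were miR-125a-5p (r = 0.975), miR-542-3p (0.962), miR-376a-3p (0.936), miR-24-1-5p (0.936) and miR-27b-3p (0.935). miR-376a-3p, which belongs to the imprinted miRNA cluster on chromosome 14, averaged 76.3 normalised CPM in A-549 and at most 4.13 in the other lines. For miR-193a-5p they were miR-7706 (0.979), miR-210-3p (0.943), miR-3613-5p (0.921), miR-1296-5p (0.919) and miR-1228-3p (0.914). miR-210-3p, the hypoxia-induced miRNA, averaged 22.2 normalised CPM in MV-3, 22.4 in Huh-7, 7.88 in A-549 and 0.514 in ES-2. For miR-365-3p they were miR-99b-5p (0.987), miR-143-3p (0.984), miR-27b-5p (0.982), miR-23b-3p (0.980) and miR-27b-3p (0.979). miR-23b-3p and miR-27b-3p, which come from the same cluster, averaged 11322 and 22842 in A-549 and 426 and 942 in ES-2.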

How the data were processed

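Total RNA of 4 parental lines was analysed in 8 libraries (NEXTflex kit). Per the study's methods and processing notes, reads were trimmed with Cutadapt 1.14, aligned to GRCh38 with Bowtie2 2.3.2 and counted on miRBase 21 by featureCounts 1.5.3. How reads with several hits and strand were treated was not given in the sources used here. The authors deposited a normalised signal, counts per 1000000 reads scaled by TMM factors of edgeR 3.18.1. With a tolerance of 0.001, 100% of the deposited values were whole multiples of 1 read, so reads were recovered. Entries of a name were summed. The main test was limma 3.58.1 (R 4.3.3) on log2(normalised CPM + 1) of 527 names passing filterByExpr, adjusted over all of them. edgeR 4.0.16 on the recovered reads called 370 miRNAs among the lines, against 359 by limma. Ratios and the sum were tested by exact permutation, two-sided through the F ratio, after 1 read was added to both parts of a ratio. The tests were checked on simulated data.

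Named miRNAs were the members, mature arms within 10 kb of a member hairpin, miRNAs sharing a member's seed at 10 normalised CPM or more (none), the 5 most alike miRNAs for each of miR-193b-3p, miR-193a-5p and miR-365-3p, and cell type markers. The members and lists were chosen with earlier results of these data known. Alternatives were RLE factors, library size only, other filters and pseudocounts, edgeR, DESeq2 1.42.0, a replicate block, unsummed entries, fits of only the lines compared, a looser threshold and leaving out each library. Hairpin positions came from GENCODE release 44. Reads are not molecules, and intervals and floors cover counting error only.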

Additional observations from a re-analysis of the deposited data

How the results depend on the processing

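Pairwise log2 fold changes of the tested members and of the added arms miR-365a-5p and miR-365b-5p were recomputed under the alternatives. Of these values together, 541 kept direction and side of the threshold, 85 lost the call, 14 gained it and 8 changed sign. The sign changes were those of miR-193b-3p for Huh-7 against MV-3 with DESeq2 (-0.074) and without MV-3 replicate 1 (-0.23, and up to 0.39 without another library); of miR-365-3p with library size only for Huh-7 against MV-3 (0.075), A-549 against MV-3 (-0.17) and A-549 against Huh-7 (-0.24); and of miR-365a-5p for MV-3 against ES-2 with library size only (0.16) and without ES-2 replicate 2 (0.45, and down to -0.90 without another library), and for Huh-7 against ES-2 without ES-2 replicate 1 (-0.16, and up to 1.18 without another library). With only the lines compared in the fit, limma called 73 miRNAs for MV-3 against ES-2 and 144 for A-549 against ES-2, against 134 and 217. The joint calls of miR-365a-5p and miR-365b-5p were lost in some fits without 1 library (adjusted p up to 0.0392 and 0.0323).

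For miR-365-3p to summed miR-193-3p, the exact p was 0.124 with the highest entry of each name, and 0.00952 to 0.152 over the fits without 1 library. For miR-193b-3p to miR-193a-3p it ran from 0.0476 to 0.381 without 1 library. These exact tests have few arrangements of libraries, which limits the smallest p. With all 8 libraries, the exact permutation test of miR-193b-3p to miR-193a-3p gave p = 0.133, adjusted 0.2. Only 2 libraries had reads of miR-193a-3p. In the others this ratio was set by the miR-193b-3p reads and the 1 read added. It therefore cannot show whether the balance of these 3p arms differed between lines.

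Deviations of same-numbered libraries had correlations of -0.0499 to 0.232 between lines, the highest for ES-2 with Huh-7. Whether the replicate numbers pair the libraries was not tested. With a replicate block, limma called 361 miRNAs among the lines, against 359, and of the calls of members it lost those of miR-193b-5p and miR-193b-3p for MV-3 against ES-2 (adjusted p = 0.0115 and 0.0151). Library size only and TMM differ most for A-549 against Huh-7, and which scale reflects the level per cell was not tested.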
